A study of Arabidopsis thaliana with 8 samples.

Results

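The 26S proteasome subunits were followed on polysome arrays of Arabidopsis seedlings. The subunit genes were taken by locus from a list of 50, made up of 23 genes of the 20S core and 27 genes of the 19S regulatory particle, and each locus was looked up among the probe sets that carry a single gene name. Of the 50 loci, 9 had such a probe set, among 13286 genes with one in all, with 1 probe set each, and all 9 lay in the brighter 50% of probe sets that were tested. The 9 are PAB2 (AT1G79210), the only core gene, and 8 genes of the regulatory particle: RPT4B (AT1G45000), RPN2A (AT2G32730), RPN2B (AT1G04810), RPN3B (AT1G75990), RPN7 (AT4G24820), RPN9A (AT5G45620), RPN11 (AT5G23540) and RPN12A (AT1G64520). The remaining 41 loci are not analysed here, among them all 11 genes of beta subunits. A statement on the core therefore rests on 1 gene, and core and regulatory particle were not compared as groups.

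The arrays compared eif3h seedlings with the wild type (WT). The mutant carries the eif3h-1 allele, in which a T-DNA insertion leaves eIF3h, a subunit of translation initiation factor 3, without its carboxyl terminus. The study also describes a low level of the truncated protein. A single allele was studied. Aerial tissue of seedlings 10 days old, raised on sucrose agar in constant light, was extracted for both genotypes, and each extract was spread on a sucrose gradient. RNA of the lower fractions, in which mRNAs carry several ribosomes (polysomal, PL), and RNA of the upper fractions, with free mRNAs and single ribosomes (non-polysomal, NP), went to separate ATH1 arrays. The 4 groups were eif3h PL, eif3h NP, WT PL and WT NP, with 2 arrays each from 2 RNA preparations made on different days. Values are MAS 5.0 signals on a linear scale. For each gradient, dividing the PL signal of an mRNA by its NP signal and taking log2 gives its translation state, and the change of translation state is the mutant value minus the WT value. A positive translation state means a higher signal in PL than in NP when both arrays are scaled to the same mean, so that it is a relative and not an absolute measure of ribosome loading.

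The 26S proteasome degrades proteins that have been tagged with ubiquitin. Its 20S core is a barrel of alpha and beta subunit rings with the proteolytic sites inside, and the 19S regulatory particle caps the barrel. The base of the regulatory particle holds the RPT ATPases, which unfold substrates and open the barrel, and large scaffold subunits such as RPN2. The lid holds RPN11, which removes the ubiquitin chain, and a set of structural subunits. The lid, the COP9 signalosome and eIF3 are related complexes built from proteins with PCI and MPN domains; eIF3h is itself an MPN domain protein. In Arabidopsis most subunits are encoded by pairs of similar genes, and proteasome genes are expressed in nearly all tissues.

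Array medians lay between 185.8 and 277.0. TIF3H1, the gene of eIF3h, had PL signals of 213.4 and 192.4 in eif3h, against 1277.3 and 1148.7 in WT, and NP signals of 1897.3 and 1949.6 in eif3h, against 2160.1 and 1732.5 in WT. Its change of translation state was -2.57, and its signals followed the genotype labels in PL only. The study reports that this gene was lower in the mutant in transcript level too, from total RNA, which is not among the arrays used here. Its probe set was named through a list of genes that the study had picked for their response in this experiment, so the value is a description, and where it lies with respect to the T-DNA is not analysed here. Of the 8 tissue markers listed, 4 had a named probe set: the leaf genes RCA (14761.4 to 36162.7) and LHCB4.1 (16793.2 to 43790.4), the guard cell gene FMA (291.5 to 660.3) and the root gene PYK10, which was also detected (1812.6 to 9267.5). LHCB4.1 was lower in eif3h NP than in WT NP (-1.12, adjusted p = 0.00712), while its PL difference was -0.16. RCA had an NP difference of -0.80 (adjusted p = 0.0796) and a PL difference of -0.09. The changes of translation state of these leaf genes were 0.71 for RCA (percentile 93.1, adjusted p = 0.437) and 0.96 for LHCB4.1 (percentile 96.9, adjusted p = 0.217), about as large as the highest among the proteasome genes. The part of leaf markers in the results on proteasome genes was not tested. In RNA of whole tissue, fewer cells of a type and less RNA per cell cannot be told apart.

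The first comparison asked whether the ribosome loading of the proteasome mRNAs differed between eif3h and WT. A value counted as called, or past the test, at an adjusted p under 0.05. None of the 9 was called for a change of translation state (adjusted p from 0.277 to 0.784, limma over all 11373 tested probe sets), where 0.0528% of all tested probe sets were called. With 2 gradients per genotype, a miss does not show that the loading was the same in both. Unadjusted p was under 0.05 for 4 of the 9, PAB2, RPN7, RPN9A and RPN11, against 14.5% of all tested probe sets. The change was positive for all 4, at 0.79, 0.68, 0.75 and 0.81 on the log2 scale, and they lay between percentiles 92.4 and 94.9 of all changes. The change was positive for 6 of the 9 and negative for RPN2A, RPN2B and RPN3B, where 40.8% of all changes were positive; when each array was centred on its median, RPN2A turned positive and the rest kept their sign. The median of the 9 was 0.42, against -0.12 over all tested probe sets, a gap of 0.54 that came to 0.50 in replicate 1 and 0.58 in replicate 2. The median alone moves with the scaling, since the median of all probe sets was 0.00 after quantile normalization and 0.24 after median centring, and 2 of 6 called changes were positive, against 35 of 40 after median centring, so that members are best read against that median.

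Both eif3h gradients lay above both WT gradients for PAB2, RPN7, RPN9A, RPN11 and RPN12A, 5 of the 9 genes, where 19.8% of all tested probe sets did so. No member had both eif3h gradients below both WT gradients, where 32.2% of all tested probe sets did. The other 4 genes overlapped between genotypes.

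**Figure D1:**
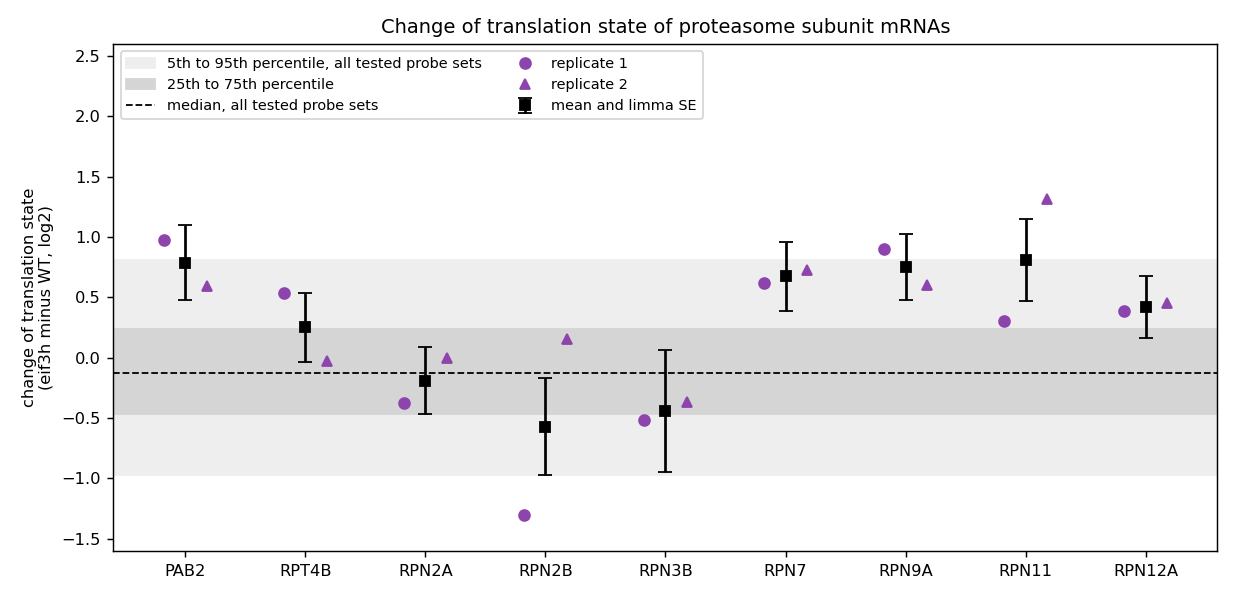
Change of translation state (eif3h minus WT, log2) of the 9 proteasome mRNAs, with circles for replicate 1, triangles for replicate 2, squares for the mean and bars for the limma SE; the grey bands run over the 25th to 75th and the 5th to 95th percentile of all 11373 tested probe sets. PAB2, RPN7, RPN9A and RPN11 have means between 0.68 and 0.81, and the replicates of RPN2B lie apart, at -1.30 and 0.16.

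PAB2 encodes an alpha subunit of the core, in the ring that gates the barrel. Its PL signal was 1292.1 and 1458.6 in eif3h, against 814.2 and 793 in WT. Its NP signal was 1013.8 and 1075.2 in eif3h, against 1256.1 and 884.4 in WT. The PL arrays separated the genotypes and the NP arrays did not. The PL difference of 0.77 ± 0.22 (SE, n = 2 per group) passed the test at an adjusted p of 0.0486, and PAB2 was the only member to pass between genotypes in either fraction. That call stood close to the threshold: it was lost in 6 of 11 alternative settings, among them quantile normalization (0.74, adjusted p = 0.0747), the fit without the replicate block (adjusted p = 0.129) and the fits without eif3h replicate 2 (0.55, adjusted p = 0.101), WT replicate 1 (0.86, adjusted p = 0.0797) and WT replicate 2 (0.69, adjusted p = 0.117). The NP difference was -0.01, with -0.31 and 0.28 in the replicates. The translation state of PAB2 was 0.35 and 0.44 in the eif3h gradients, against -0.63 and -0.16 in the WT gradients. It thus stood on the PL side in both eif3h gradients and on the NP side in both WT gradients, but the change of 0.79 ± 0.31 missed the threshold (adjusted p = 0.304).

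PAD2 (AT5G66140), an alpha subunit of the same ring, is among the loci without a named probe set and is not counted among the 9. Its probe set is known here only because the study listed the gene among those that responded to the mutation in this experiment, a route that the unlisted subunits did not have, so its genotype differences are given as a description with no test. On the PL arrays it had signals of 1023.4 and 1467.7 in eif3h, against 537 and 636 in WT, a difference of 1.07. Its NP signal was 1013.7 and 1605.8 in eif3h, against 722.3 and 1468.7 in WT, a difference of 0.31. The genotypes did not overlap in PL and overlapped in NP. The translation state of PAD2 was 0.01 and -0.13 in eif3h, against -0.43 and -1.21 in WT, and the change was 0.76. Nothing on the core is drawn from PAD2.

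In the base of the regulatory particle, RPT4B encodes an ATPase of the hexameric ring. Its PL signal was 1878.2 and 1760.1 in eif3h, against 1967.6 and 2008.6 in WT, and its NP signal was 956.1 and 938.5 in eif3h, against 1450.8 and 1051.1 in WT. The eif3h arrays were thus below the WT arrays in both fractions, without a call in either (PL -0.13, adjusted p = 0.713; NP -0.38, adjusted p = 0.213). RPT4B was well loaded in both genotypes. Its translation state was 0.97 and 0.91 in the eif3h gradients (adjusted p = 0.00642), against 0.44 and 0.93 in the WT gradients (adjusted p = 0.0309). The call in WT was lost without WT replicate 2 (0.44, adjusted p = 0.286) and without the replicate block (adjusted p = 0.0819), and it was kept without WT replicate 1 (0.93, adjusted p = 0.0383). The change of 0.25 ± 0.28 had 0.53 in replicate 1 and -0.03 in replicate 2.

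RPN2A and RPN2B encode alternative forms of the large scaffold subunit of the base. RPN2A had PL signals of 962.1 and 1314.5 in eif3h, against 925.1 and 1089 in WT, and NP signals of 715.6 and 1011.5 in eif3h, against 529.5 and 836.9 in WT. In all 4 groups replicate 2 was the brighter, and the genotypes overlapped in both fractions. The translation state of RPN2A was 0.43 and 0.38 in eif3h (adjusted p = 0.134), against 0.80 and 0.38 in WT (adjusted p = 0.0494). The WT value was called by a narrow margin and lost the call in 5 of 12 alternatives, without WT replicate 1 (0.38, adjusted p = 0.367) without WT replicate 2 (0.80, adjusted p = 0.0869) and without the replicate block (adjusted p = 0.234) among them. The change was -0.19 ± 0.28.

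RPN2B had PL signals of 604.5 and 736.2 in eif3h, against 553.5 and 554.7 in WT, and NP signals of 1275.5 and 757.4 in eif3h, against 473.9 and 636.7 in WT. The eif3h arrays exceeded the WT arrays in both fractions, and the NP array of eif3h replicate 1 stood above the other 7 arrays. The NP difference of 0.84 ± 0.28 was not called (adjusted p = 0.072) and was 1.43 in replicate 1 and 0.25 in replicate 2. The translation state was -1.08 and -0.04 in eif3h, against 0.22 and -0.20 in WT. RPN2B was the only member with a negative mean in eif3h (-0.56, adjusted p = 0.146), and that value came mainly from replicate 1. The change was -0.57 ± 0.40 (adjusted p = 0.533). The fit that leaves out eif3h replicate 2 called it, at -1.09 (adjusted p = 0.0477), but that fit called 6.57% of all tested probe sets.

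Within each gradient the translation state of RPN2A exceeded that of RPN2B, by 1.504 and 0.42 in the eif3h gradients and by 0.58 and 0.58 in the WT gradients. The mean difference over the 4 gradients was 0.77 ± 0.49 (SD), with p = 0.125 in a two-sided exact permutation test of signs. That is the smallest p that 4 gradients allow, so the test could not pass and nothing is drawn from it. The 4 gradients are also of both genotypes and not replicates of 1 condition. A translation state is a ratio within a probe set, so that the pair can be set side by side although the signals of different probe sets cannot. Cross-hybridization between such similar genes was not tested.

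**Figure D2:**
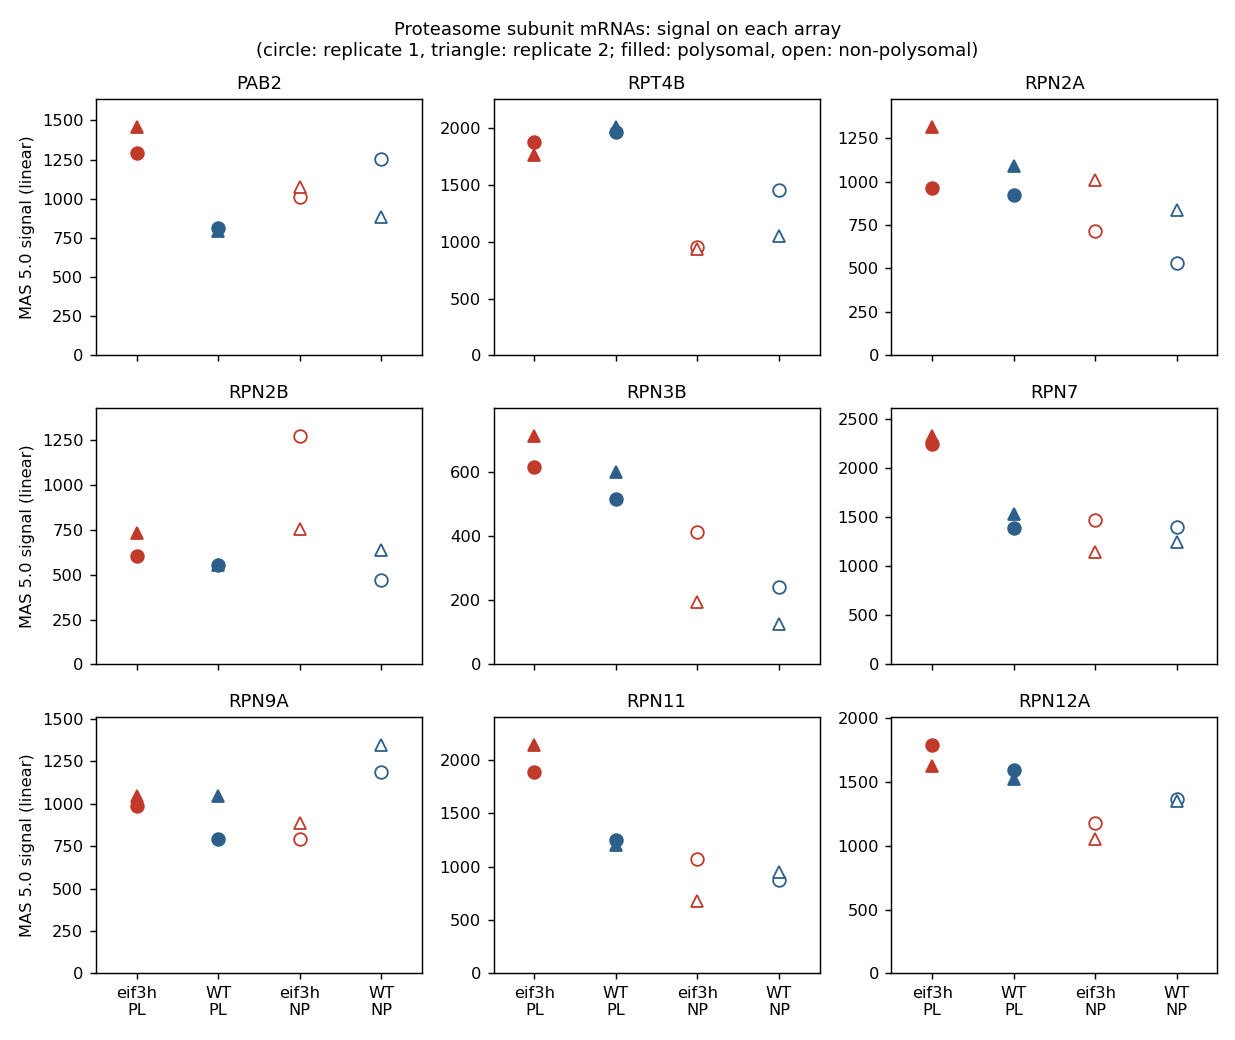
MAS 5.0 signal (linear axis from 0) of each proteasome mRNA on each of the 8 arrays, in the order eif3h PL, WT PL, eif3h NP and WT NP, with circles for replicate 1 and triangles for replicate 2. The PL signals of PAB2, RPN7 and RPN11 separate the genotypes by the widest margins, and RPN9A is among those that separate them in NP.

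In the lid, RPN11 encodes the metalloprotease that releases ubiquitin from substrates. Its PL signal was 1887.8 and 2140.8 in eif3h, against 1249.6 and 1205.4 in WT. Its NP signal was 1072.7 and 676.7 in eif3h, against 874.9 and 948.2 in WT. The PL arrays separated the genotypes while the NP arrays overlapped. The PL difference of 0.71 ± 0.24 was not called (adjusted p = 0.0808). RPN11 was, with RPN3B, one of a pair with the highest translation states in eif3h, which did not differ beyond their errors and changed places after quantile normalization (1.21 and 1.59). It was 0.82 and 1.66 in the eif3h gradients (mean 1.24 ± 0.24, adjusted p = 0.00404), against 0.51 and 0.35 in WT (mean 0.43, adjusted p = 0.204). The change of 0.81 ± 0.34 (adjusted p = 0.321) was the highest of the 9 and was uneven between the replicates (0.30 and 1.32). The fit that leaves out eif3h replicate 1 called it, at 1.23 (adjusted p = 0.00577), but that fit called 7.78% of all tested probe sets.

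RPN7, a PCI domain subunit of the lid, had PL signals of 2243.3 and 2329.5 in eif3h, against 1386.9 and 1528.7 in WT. Its NP signals were 1472.5 and 1149.5 in eif3h, against 1400.2 and 1251.5 in WT. As with PAB2 and RPN11, eif3h was higher in PL and overlapped with WT in NP. The PL difference of 0.65 ± 0.20 missed the threshold (adjusted p = 0.0623). The translation state was 0.61 and 1.02 in eif3h (adjusted p = 0.0121), against -0.01 and 0.29 in WT (adjusted p = 0.64). RPN7 had the closest agreement of replicates among the 4 highest changes, 0.62 and 0.73, with a mean of 0.68 ± 0.28 (adjusted p = 0.321).

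RPN9A, another PCI domain subunit, separated the genotypes in the other fraction. Its PL signal was 987.6 and 1047.5 in eif3h, against 791.3 and 1047.7 in WT. Its NP signal was 794.4 and 886.6 in eif3h, against 1187.2 and 1346.1 in WT. The PL arrays overlapped and the NP arrays of eif3h lay below those of WT, with a difference of -0.59 ± 0.19 that was not called (adjusted p = 0.0634). Its translation state was 0.31 and 0.24 in eif3h, against -0.59 and -0.36 in WT. It was, like PAB2, on the PL side in both eif3h gradients and on the NP side in both WT gradients, a pattern that 9.20% of all tested probe sets showed in one direction or the other. The change of 0.75 ± 0.27 had the lowest unadjusted p of the 9 (0.0214, adjusted p = 0.277).

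RPN12A, a lid subunit needed for a normal cytokinin response in Arabidopsis, had PL signals of 1789 and 1623.8 in eif3h, against 1589.8 and 1523.5 in WT, and NP signals of 1174.3 and 1054.2 in eif3h, against 1365.6 and 1351.7 in WT. The eif3h arrays were above WT in PL and below WT in NP, by small amounts (0.13 and -0.29) that were not called. The translation state was 0.61 and 0.62 in eif3h (adjusted p = 0.0254), against 0.22 and 0.17 in WT (adjusted p = 0.448). The call in eif3h was lost after quantile normalization (0.53, adjusted p = 0.057) and without the replicate block (adjusted p = 0.065). The change was 0.42 ± 0.26, with 0.39 and 0.45 in the replicates (adjusted p = 0.48).

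RPN3B, also a PCI domain subunit, was the dimmest of the 9, at percentile 63.6 of mean signal. Its PL signal was 615.9 and 711.8 in eif3h, against 513.9 and 600.5 in WT. Its NP signal was 413.5 and 195 in eif3h, against 241.8 and 127.4 in WT. In both genotypes NP was lower in replicate 2. RPN3B had the highest translation state in WT, 1.09 and 2.24 in the gradients (mean 1.66 ± 0.36, adjusted p = 0.00882), against 0.57 and 1.87 in eif3h (mean 1.22 ± 0.36, adjusted p = 0.0244). The call in WT was lost without WT replicate 2 (1.09, adjusted p = 0.143) and the call in eif3h without eif3h replicate 2 (0.57, adjusted p = 0.205) or without the replicate block (adjusted p = 0.0685). The change was -0.44 ± 0.51, the widest SE of the 9. It was negative in both replicates (-0.51 and -0.37). It turned positive only in the fits without eif3h replicate 1 (0.21) or WT replicate 2 (0.13), which leave a gradient without its partner of the same replicate number. The NP difference was likewise 0.77 and 0.61 within the replicates, although the arrays of the genotypes overlapped between them.

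**Figure D3:**
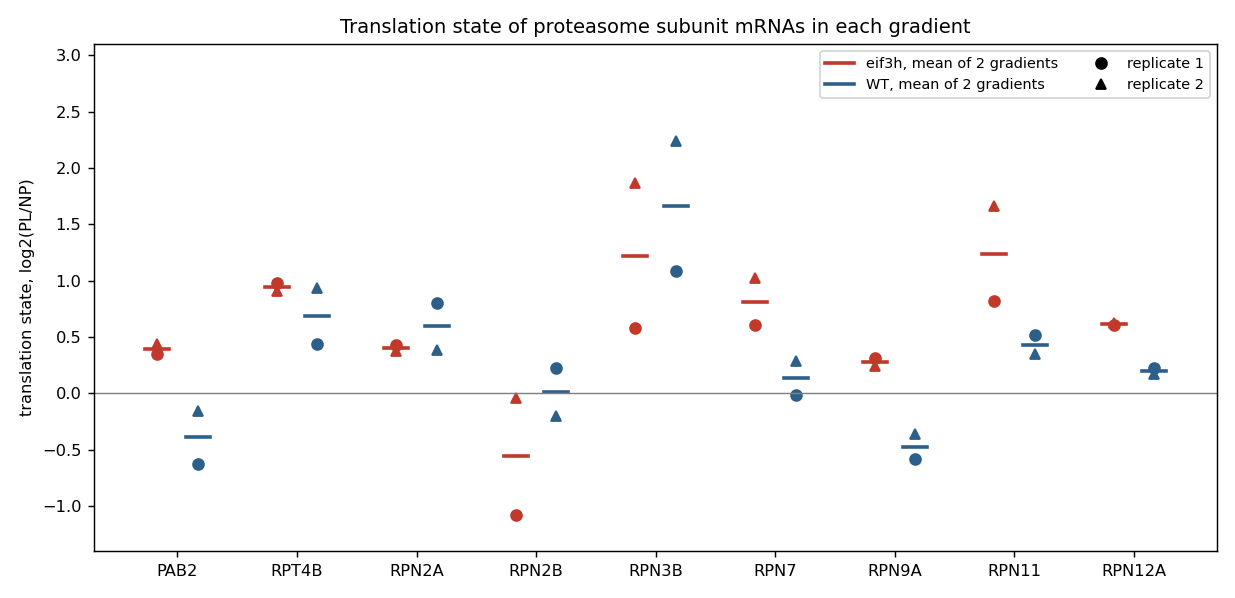
Translation state, log2(PL/NP), of the 9 proteasome mRNAs in each gradient, eif3h in red to the left of WT in blue, with circles for replicate 1, triangles for replicate 2 and a bar for the mean of 2 gradients. PAB2 and RPN9A are above 0 in eif3h and below 0 in WT, and RPN3B and RPN11 lie highest in eif3h.

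Within each genotype most of the proteasome mRNAs had a positive mean translation state, less clearly in WT. In eif3h 8 of the 9 had a positive translation state, and 5 passed the test as higher in PL (RPT4B, RPN3B, RPN7, RPN11 and RPN12A), where 16.9% of all tested probe sets passed in that direction and 42.9% were positive. In WT 7 of the 9 were positive, and 3 passed as higher in PL (RPT4B, RPN2A and RPN3B), where 15.0% of all tested probe sets passed and 50.3% were positive. Among those 7, RPN2B (0.22 and -0.20) and RPN7 (-0.01 and 0.29) changed sign between the WT gradients. None passed as lower in PL in either genotype, where 22.2% of all tested probe sets did in eif3h and 15.1% in WT; at an unadjusted p under 0.05, RPN9A in WT was the only one. Median centring raised the calls in eif3h to 8 of the 9, with PAB2, RPN2A and RPN9A added, but it also made 3895 of all 4863 called probe sets higher in PL, where 1925 of 4454 were so without it; in WT the same figures were 2240 of 3506 and 1709 of 3423. Without the replicate block 3 of the 9 were called in eif3h and 1 in WT, while the calls over all tested probe sets in either direction dropped to 23.4% in eif3h and 15.2% in WT, against 39.2% and 30.1% with the block. The median of the 8 regulatory particle genes lay 0.87 above the median of all probe sets in eif3h (0.72 and 0.93 in the replicates) and 0.31 above it in WT (0.33 and 0.32). These gaps shrank to 0.55 in eif3h after quantile normalization, and to 0.51 in eif3h and 0.11 in WT among the upper 25% of signals. In that brighter set, which lacks RPN3B, 4 of 8 members passed as higher in PL in eif3h, where 1624 of 5686 probe sets did. In WT 2 of 8 members passed there, where 1326 of 5686 probe sets did. RPN7, RPN11 and RPN12A were called in eif3h and not in WT, but a call in 1 genotype is no difference between genotypes, and none of the 3 passed the test of that difference given above.

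The lid and base genes were set apart after their values had been seen, so their summaries are descriptions. The 5 lid genes had a median change of 0.68, with 4 positive, and the 3 base genes had one of -0.19, with 1 positive; the difference between them was not tested. In eif3h all 5 lid genes had a positive translation state, with a median of 0.81, against 4 of 5 and a median of 0.20 in WT. The base genes had medians of 0.40 in eif3h and 0.59 in WT.

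The fractions were then compared one at a time, to see in which of them a genotype difference lay. In PL 8 of the 9 genes were higher in eif3h, where 46.0% of all tested probe sets were, and only RPT4B was lower. Only PAB2 passed the test, where 5.92% of all tested probe sets passed as higher. Both eif3h PL arrays lay above both WT PL arrays for 6 of the 9 (PAB2, RPN2B, RPN3B, RPN7, RPN11 and RPN12A), against 24.4% of all tested probe sets, and below them for RPT4B, against 29.0%. Of all probe sets called in PL, 673 of 1538 were higher in eif3h, and 898 of 1497 after median centring, which called RPN7 as well (0.76, adjusted p = 0.0425). The PL differences of the 9 had a median of 0.25, against -0.06 over all tested probe sets.

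In NP 3 of the 9 were higher in eif3h (RPN2A, RPN2B and RPN3B), where 56.8% of all tested probe sets were; PAB2 and RPN7, at -0.01 and -0.03, turned positive after quantile normalization. None passed the test in limma, where 17.1% of all tested probe sets passed in either direction; unadjusted p was under 0.05 for 2 of the 9, RPN2B and RPN9A, against 34.0%. Both eif3h NP arrays lay below both WT NP arrays for RPT4B, RPN9A and RPN12A, against 21.8% of all tested probe sets, and above them for RPN2B, against 29.2%. The NP differences of PAB2, RPN7 and RPN11 changed sign between the replicates. Of all probe sets called in NP, 961 of 1945 were higher in eif3h, and 412 of 2133 after median centring, which called RPN9A as lower (-0.84, adjusted p = 0.0172). The NP median of the 9 was -0.03, against 0.10 over all tested probe sets.

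The PL and NP parts of the positive changes of PAB2, RPN7, RPN9A and RPN11 are given as means, and the genes were not tested against each other. PAB2, RPN7 and RPN11 had PL differences of 0.65 to 0.77 and NP differences between -0.10 and -0.01. RPN9A had a PL difference of 0.16 and an NP difference of -0.59. The small NP means average replicates of opposite sign, -0.31 and 0.28 for PAB2, 0.07 and -0.12 for RPN7, and 0.29 and -0.49 for RPN11. The PL and NP differences of a gene were not tested against each other apart from the change of translation state, which is their difference.

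**Figure D4:**
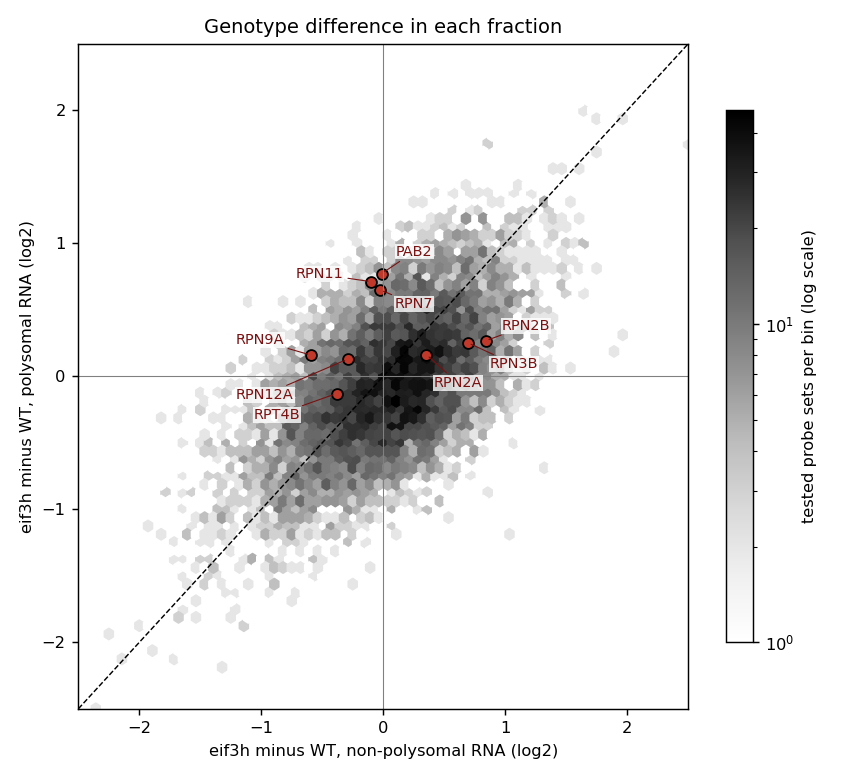
Difference eif3h minus WT (log2) in polysomal RNA (vertical) against that in non-polysomal RNA (horizontal) for the 9 proteasome mRNAs, in red, over a density of all tested probe sets, of which 109 lie outside the axes; the dashed line marks no change of translation state. PAB2, RPN7 and RPN11 lie high above the middle, RPN9A lies to the left, and RPN2B and RPN3B lie to the right.

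Genes that work with the proteasome were taken from a list of 44 loci (shuttle factors, ubiquitin and its conjugating enzymes, proteasome-associated factors and the COP9 signalosome), of which 5 had a named probe set and 4 were tested. None of the 4 was called for a change of translation state in limma, where 0.0528% of all tested probe sets were called. Unadjusted p was under 0.05 for 1, UBC28, against 14.5% of all tested probe sets. UBC28, a ubiquitin-conjugating enzyme, had the highest change (0.82 ± 0.34, adjusted p = 0.315; 0.31 and 1.33 in the replicates). It was strongly on the NP side in both genotypes, with a translation state of -1.48 in eif3h (adjusted p = 0.00181) and -2.29 in WT (adjusted p = 0.000532). It fell in both fractions of eif3h, by 0.85 in PL (adjusted p = 0.0466) and by 1.66 in NP (adjusted p = 0.00353).

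UMP1B encodes a factor that helps to assemble the core. On the PL arrays it reached 4228.5 and 4079.7 in eif3h, against 2361.2 and 2476.3 in WT, a difference of 0.78 ± 0.19 that passed the test (adjusted p = 0.028). Its NP signal was 2517.9 and 2436.2 in eif3h, against 2017.1 and 1623.9 in WT (0.45, adjusted p = 0.127). UMP1B was higher in eif3h on all arrays of both fractions, and its change of translation state was 0.33 ± 0.27. ECM29, known in yeast as an adaptor that binds the assembled proteasome, had a change of -0.39 ± 0.30. PTRE1, a regulator of proteasome activity, had -0.69 in replicate 1 and 1.53 in replicate 2. CSN5B, the catalytic subunit of the COP9 signalosome, lay below the signal filter and was not tested.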

How the data were processed

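Polysomal and non-polysomal RNA of eif3h and WT seedlings was measured on 8 ATH1 arrays, 2 per group. The authors used MAS 5.0 for background correction and scaling, and the deposited values are signal intensities, 1 for each probe set; such a scaling sets all arrays to one mean, so differences are relative to the RNA on that array. The trimmed means were 500.037 to 500.058. The number of arrays limits the precision, and detection calls were not used here.

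Names came from the platform table and RefSeq (13436 of 22746 without controls had 1 gene; 64 control probe sets were left out). PAD2 and TIF3H1 were named through the study's supplementary list of genes whose translation or transcript level responded to the mutation. Their probe sets are among those tested, but their genotype differences are given without a test result. Signals were taken as log2 with no offset, and the 50% with the highest mean were tested (11373). All arrays were fitted together with limma 3.58.1 in R 4.3.3 (lmFit, then eBayes with trend) in a design of 4 group means plus a block for the replicate number. Tests are two-sided and p-values adjusted by Benjamini-Hochberg over all tested probe sets at 0.05. SE is limma's moderated standard error. A run on simulated data checked that the fit returned the median size of the differences put in. Most differences of 1 on the log2 scale were not called there. The noise model of that run was changed after an earlier run, so it gives no firm estimate of how many real differences are missed. Nothing is drawn from it on that point. Given the few gradients per genotype, a miss for the change of translation state still does not show equal loading.

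The replicate numbers pair the samples. The study made 2 RNA preparations on different days and counts arrays of both genotypes into each experimental repeat. It does not state that both genotypes were prepared on the same day. Each number also marks a scan day and scanner per the array records, and deviations correlated between all groups (r from 0.326 to 0.68). The correlation was highest between PL and NP of one genotype, which share gradients (0.52 in eif3h and 0.68 in WT). Scan day and preparation day cannot be told apart. Named genes were members past any of the 5 tests, the highest and lowest of each subunit class, PAD2, the mutated gene, compared paralogs and, per related list, up to 2 genes with the smallest p; PTRE1, CSN5B and the members that the rule does not take were added with their values known. Members and lists were chosen with earlier results of these data known, and the split into lid and base was made after the values were seen. Alternatives were quantile normalization, median centring, other signal filters, a pseudocount of 16, no replicate block, a gradient block, a mean over probe sets and leaving out each gradient.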

Additional observations from a re-analysis of the deposited data

Results flagged for a closer look

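The translation state of TIF3H1 differed between genotypes in the interaction term (-2.57); the study had picked this gene's probe set by its response in the same experiment, so the value is a description. PAB2 and RPN9A had a translation state above 0 in both eif3h gradients and below 0 in both WT gradients; the interaction test of that difference missed the threshold (0.79, adjusted p = 0.304, and 0.75, adjusted p = 0.277). Of all tested probe sets, 9.20% had opposite signs in the genotypes, counted in either direction. RPN12A was the only 1 of the 9 that was higher in eif3h than in WT in both PL comparisons and lower in both NP comparisons. That is near the share over all tested probe sets, of which 12.7% had opposite signs in the fractions, counted in either direction. The interaction test gave 0.42 for RPN12A (adjusted p = 0.48).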

How the results depend on the processing

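The number of arrays limits what can be called. Leaving out a gradient leaves 1 sample in an arm, which is then assumed to vary like the other groups. For the change, 0 members passed, also with the replicate block left out, but 1 passed without eif3h replicate 1 (RPN11) and 1 without eif3h replicate 2 (RPN2B), so 0 to 1, in fits that called 7.78% and 6.57% of all probe sets. The change of the regulatory particle relative to all probe sets was 0.46, and it was 0.28 after quantile normalization, 0.57 with no signal filter, 0.39 in the upper 25% of signals and 0.35 to 0.56 without 1 gradient. In eif3h 5 members were called, 8 after median centring and 3 without the replicate block; their relative median was 0.87, and 0.55, 1.14 and 0.51 after quantile normalization, with no filter and in the upper 25%, with 0.72 to 0.93 without 1 gradient. In WT 3 were called, 1 without the replicate block and 0 to 5 without 1 gradient (0 without WT replicate 2), while calls over all probe sets ran from 13.8% to 47.1%; the relative median was 0.31, and 0.25, 0.44 and 0.11 in the same 3 settings, with 0.31 to 0.33 without 1 gradient. In PL 1 was called, 0 after quantile normalization, with no filter and without the replicate block, and 2 after median centring and in the upper 25%. Without these alternatives 13.5% of all probe sets were called in PL. The share was 8.83% after quantile normalization, 4.93% with no filter, 2.65% without the replicate block, 13.2% after median centring and 21.5% in the upper 25%. The relative median was 0.26, and 0.24 after quantile normalization, 0.17 in the upper 25% and 0.17 to 0.40 without 1 gradient. In NP 0 were called, 1 after median centring and 1 in the upper 25% (RPN9A in both), where 17.1%, 18.8% and 25.8% of all probe sets were called. The relative median of -0.16 ran from -0.34 without eif3h replicate 1 to 0.11 without eif3h replicate 2.

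Over single members, 463 of 517 values under the alternatives kept direction and call, 21 gained a call, 18 lost one and 15 changed sign, all 15 of uncalled values. Part of this agreement was fixed in advance. The mean over probe sets repeats the fit with the replicate block, and a changed block keeps every estimate. Leaving out a gradient of 1 genotype keeps the translation state of the other. The tally is therefore no measure of robustness, and counts of alternatives for single members include such settings. After quantile normalization the NP differences of PAB2 (0.027) and RPN7 (0.052) turned positive, and after median centring the change of RPN2A (0.17) did. Without 1 gradient, the change ran from -0.40 to 0.023 for RPN2A and from -1.09 to 0.21 for RPN3B, the WT translation state from -0.20 to 0.22 for RPN2B and from -0.014 to 0.29 for RPN7, the PL difference of RPN3B from -0.078 to 0.58, and the NP difference from -0.33 to 0.30 for PAB2, from -0.20 to 0.15 for RPN7 and from -0.44 to 0.25 for RPN11. The cause was not tested. The gradient block gave the same counts of called members, 0 for the change, 5 in eif3h and 3 in WT, and has no value within a fraction. Over all probe sets it called 1.64% for the change, 47.1% in eif3h and 39% in WT, against 0.0528%, 39.2% and 30.1% with the replicate block. Under it, limma's unadjusted p for the change was 0.0125 for PAB2, 0.0128 for RPN9A, 0.0197 for RPN11 and 0.023 for RPN7. Adjusted p of the members ran from 0.14 to 0.736. The mean over probe sets per gene gives the same values as the fit with the replicate block, since each member has 1. RPN3B is absent from the upper 25%. The core has 1 gene, so its planned median is the value of PAB2.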
